A study of Mus musculus with 6 samples.

Results

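Transcripts of 9 genes of the myelin sheath, Mbp, Mobp, Mal, Cldn11, Mag, Mog, Cnp, Ugt8a and Gpr37, were followed in mouse neural stem cells carrying a control hairpin or a hairpin against Mina53. The genes were chosen by name, and all 9 were found among the 25996 genes of the table, each as 1 entry. RNA of 6 samples was sequenced, all labelled as neural stem cells with the treatment proliferation. The 3 libraries labelled shControl had the genotype WT, and the 3 labelled shMina53 had the genotype Mina53 knockdown. Mina53 is the protein of the gene Riox2, a JmjC-domain oxygenase that the series title calls an arginine demethylase. The labels do not give the age or brain region the cells came from, the number of hairpin sequences, or whether a group's libraries came from separate cultures. The p-values therefore reflect differences among these samples, which could be technical.

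Myelin is the membrane that oligodendrocytes wrap around axons in the central nervous system. Its compact layers are held together on the cytoplasmic side by myelin basic protein (Mbp), its channels of cytoplasm are kept open by the enzyme of the gene Cnp, and its inner and outer faces carry the adhesion proteins of Mag and Mog. Neural stem cells can give rise to oligodendrocytes by way of precursor cells, and the full set of myelin genes is switched on late in that path, under the factors SOX10 and MYRF. Cnp, Ugt8a and some forms of Mbp are known to be transcribed before myelin is made.

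Values are read counts scaled by 1 factor per library, called scaled counts, and means are given ± SD over n = 3 libraries, with single libraries in the order of replicates 1, 2 and 3. Depth was similar, with 13753857 to 16811085 recovered reads per library. Each shMina53 library had fewer reads (13753857 to 16017753) than each shControl library (16024363 to 16811085). Riox2, the target of the hairpin, had 290.4, 333 and 307 scaled counts in the shControl libraries and 121, 125 and 121 in those of shMina53 (limma adjusted p = 9.1e-05). Every library labelled shMina53 was below every shControl library, and the shMina53 mean was 39.4% of the control mean. Riox2 (mean 216 over all libraries) shares 1185 of its 5290 exon bases with Crybg3 (mean 259) on the other strand. Whether reads of Crybg3 were counted for Riox2 was not tested. The library shControl 3 stood apart: its counts differed from those of shControl 1 and 2 by a chi-square of 37.1 and 22.2 per gene, against 6.38 between shControl 1 and 2 and 4.90 to 11.7 among the shMina53 libraries. Stem and progenitor markers such as Nes, an intermediate filament gene (7520 ± 915 scaled counts in shControl), were abundant in both groups. The 8 markers of this kind summed to 101534 to 122889 in shControl and 85678 to 90870 in shMina53, and limma called 2 of them lower and 0 higher (2 and 1 at an unadjusted p under 0.05). The 6 oligodendrocyte precursor markers summed to 46871 to 49283 and 44557 to 53510, a sum carried by the abundant Olig1. Of the 6, 3 were called lower and 0 higher (3 and 0 unadjusted), with a median log2 fold change of -0.49. These 3 were Pdgfra, Sox10 and Gpr17, and the same genes are counted again in the lists of lineage genes below. The 8 astrocyte markers summed to 70544 to 74197 and 88493 to 92571, with 3 called higher and 0 lower (5 and 0 unadjusted). The 7 Schwann cell markers, which include myelin genes of peripheral nerve, summed to 632 to 698 and 494 to 520.1, with 1 called lower and 0 higher (1 and 0 unadjusted). That sum was mostly Egr2, since 4 of the 7 had a mean under 10 and Prx and Dhh had means of 44.9 and 82.3. The 8 neuronal markers found summed to 2404 to 2701 and 1659 to 1955, with 2 called lower and 0 higher (4 and 1 unadjusted). The 4 ependymal markers found summed to 353 to 358 and 522 to 618, with 1 called higher and 0 lower (3 and 0 unadjusted). Of these markers Ccdc39 (mean 133) shares 1256 exon bases with Ttc14 (mean 1734) on the other strand. The 7 of fibroblasts and mural cells summed to 234 to 335 and 354 to 541, with 0 called (2 higher and 0 lower unadjusted). The 2 microglial markers found summed to 1.89 to 4.77 and 3.11 to 5.80, and the 4 endothelial markers found to 40.4 to 65.8 and 61.9 to 78.9, mostly Kdr, with 0 called in either list (0 unadjusted). By edgeR the adjusted calls were the same in number in each of these lists, although it tested fewer or none of the markers in 6 of them. Over all genes tested limma called 4.47% lower and 3.79% higher. The part of these other cell types in the results was not tested.

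The myelin genes differed widely in level. Per kilobase of exon (the union of all annotated exons of a gene), Cnp, which encodes the nucleotide phosphodiesterase of myelin's cytoplasmic channels, was the highest of the 9 in every library, with 588 ± 30.4 scaled counts per kilobase in shControl and 615 ± 35.1 in shMina53. It was followed in shControl by Cldn11 (87.9 ± 15.2), the claudin of the tight junctions between myelin layers, and Ugt8a (74.7 ± 8.15), the enzyme that makes the myelin lipid galactosylceramide, and the libraries of these neighbours overlapped. Mbp (25.2 ± 4.30), the receptor gene Gpr37 (10.6 ± 1.15), the raft proteolipid gene Mal (7.83 ± 1.80) and Mog (2.96 ± 0.836) came next, each separate from its neighbours in all 3 shControl libraries. Mag (0.309 ± 0.352) and Mobp (0.229 ± 0.285), a further basic protein of compact myelin, were lowest and overlapped. In shMina53 the order was Cnp, Ugt8a (63.3 ± 6.44), Cldn11 (40.8 ± 12.5), Gpr37 (18.6 ± 3.14), Mbp (12.97 ± 3.54), Mal (9.89 ± 3.09), Mog (1.89 ± 1.24), Mobp (1.75 ± 0.789) and Mag (0.170 ± 0.294). In that group Gpr37, Mbp and Mal overlapped from one neighbour to the next, as did Mog and Mobp, whereas the other neighbours were separate. With the longest transcript as the length, 7 of the 9 genes kept their place in shControl, and Ugt8a and Cldn11 changed places. In shMina53 only 5 of the 9 kept theirs, since Mbp then came before Gpr37 and Mobp before Mog. The 9 markers of mature oligodendrocytes, of which 5 had a mean under 10, summed to 1052 to 1401 scaled counts in shControl and 949.7 to 1345 in shMina53. Among them, Mag, Opalin and Ermn each had under 5 scaled counts in every library.

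**Figure D1:**
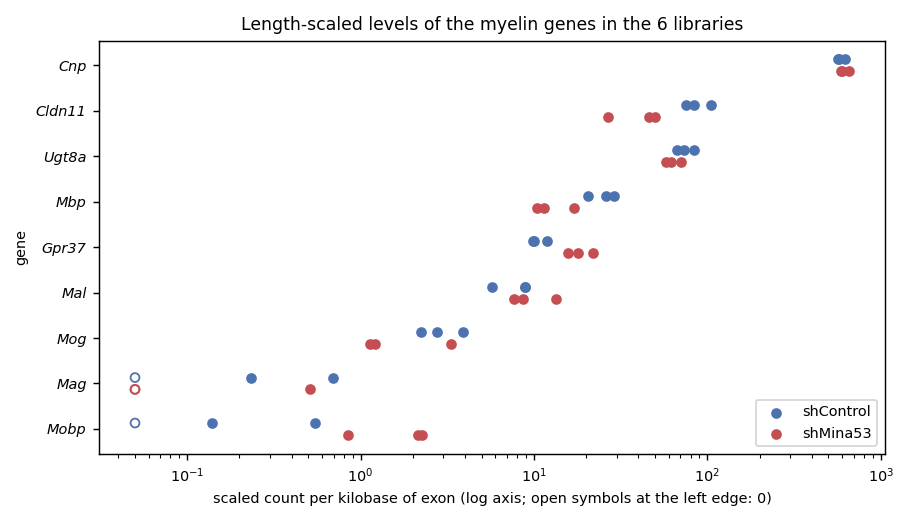
Scaled counts per kilobase of exon of the 9 genes on a log axis, 1 symbol per library, blue for shControl and red for shMina53; open symbols at the left edge are libraries at 0. Cnp sits highest in all 6 libraries, and Mag and Mobp lie under 3 scaled counts per kilobase.

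The genes of the sheath did not move together. Of the 9 genes 8 had a mean of at least 1 scaled count and were tested, and 2 were called lower (Mbp and Cldn11), 2 higher (Gpr37 and Mobp) and 4 not called (Cnp, Ugt8a, Mal and Mog). Called means a two-sided limma adjusted p under 0.05, Benjamini-Hochberg adjusted across the 21500 tested genes. By that rule 8.26% of all genes tested were called, 4.47% lower and 3.79% higher in shMina53 (961 and 815 genes). The groups did not overlap in 2 of the 8 genes in the lower and 2 in the higher direction, against 14.1% and 14.9% of all genes tested. With upper quartile scaling 740 of all genes were called lower and 1053 higher. The 4 calls and their directions held with that scaling and without shControl 3. The calls higher were 0 without shControl 2, shMina53 2 or shMina53 3, and the calls lower were 1 without shMina53 2 or shMina53 3. With limma without trend and robust 0 of the 8 genes were called in either direction. The genes were proposed with results of these data known, so their count against that background is a description and not a test. Their median log2 fold change was -0.09, and that of all genes tested 0.02. In these bulk libraries fewer cells of a type and less RNA per cell cannot be told apart.

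Mbp, whose basic protein draws the cytoplasmic faces of compact myelin together, fell in shMina53. It had 245, 173 and 221 scaled counts in the shControl libraries (677 reads in all) and 144, 88.2 and 97.1 in those of shMina53 (320 reads). All shMina53 libraries lay under all shControl libraries, and replicate 2 was the lowest of each group. The mean went from 213 ± 36.4 to 109.8 ± 29.99, 51.5% of the control, a log2 fold change of -0.97 (SE 0.200, 95% interval -1.39 to -0.55; limma adjusted p = 0.00709). The call was lost without shMina53 2 (limma adjusted p = 0.0503) and without shMina53 3 (0.0678). Mbp lies on chromosome 18 (82475146 to 82585637, plus strand; ENSMUSG00000041607; coordinates on mm10, GENCODE M21) and has 16 annotated transcripts. They include the Golli forms, which start upstream of the classic ones and are also made by precursors and neurons, and a count per gene does not separate the forms.

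Cldn11 fell too. It had 196, 156 and 141 scaled counts in the shControl libraries and 86.0, 93.4 and 49.7 in those of shMina53, from 522 and 223 reads. The groups did not overlap, and shMina53 3 was the lowest library. The mean went from 164 ± 28.5 to 76.4 ± 23.4, 46.4% of the control, with a log2 fold change of -1.13 (SE 0.230, 95% interval -1.62 to -0.65; limma adjusted p = 0.00639). This gene (ENSMUSG00000037625; chromosome 3, 31149920 to 31164324, plus strand) has 1 annotated transcript. Leaving out any 1 of the 6 libraries kept its call, with a fold change of -0.85 without shMina53 3 (limma adjusted p = 0.0480).

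Gpr37, a G protein-coupled receptor known to restrain the maturation of oligodendrocytes and also made by neurons, rose. It had 72.6, 61.0 and 60.1 scaled counts in the shControl libraries and 95.7, 109 and 133 in those of shMina53, from 205 and 322 reads. Every shMina53 library was above every shControl library. The mean went from 64.6 ± 6.96 to 113 ± 19.1, 174% of the control, with a log2 fold change of 0.79 (SE 0.205, 95% interval 0.35 to 1.22; limma adjusted p = 0.0262). Its call was lost without shControl 2 (limma adjusted p = 0.0976), shMina53 2 (0.102) or shMina53 3 (0.144). Gpr37 (ENSMUSG00000039904) lies on chromosome 6, 25665878 to 25690729, minus strand. The related receptor gene Gpr37l1, found mostly in astrocytes, had 1260 ± 119 and 1074 ± 84.0 scaled counts and was not called (log2 fold change -0.23; limma adjusted p = 0.235). Psap, the gene of a proposed ligand of both receptors, was not called either (0.08; limma adjusted p = 0.693).

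Mobp rose from very few reads. Its reads numbered 0, 1 and 4 with the control hairpin and 6, 15 and 13 with the knockdown, which are 0, 0.953 and 3.76 against 5.80, 15.6 and 14.7 scaled counts. The groups did not overlap, although shMina53 1 was close to shControl 3. The reads gave a ratio of 7.49 (95% exact counting interval 2.91 to 24.5, counting error only), and the fit on log2 of the scaled count plus 1 gave 2.52 (SE 0.658; limma adjusted p = 0.0262). With a pseudocount of 5 the fitted change was 1.36, and the call was lost without shControl 2 (limma adjusted p = 0.0792), shMina53 2 (0.137) or shMina53 3 (0.150). Mobp (ENSMUSG00000032517; chromosome 9, 120149707 to 120181484, plus strand) shares 79 exon bases with Gm38642 on its own strand, a transcript not analysed here. The compact myelin genes Mbp and Mobp were thus called in opposite directions.

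**Figure D2:**
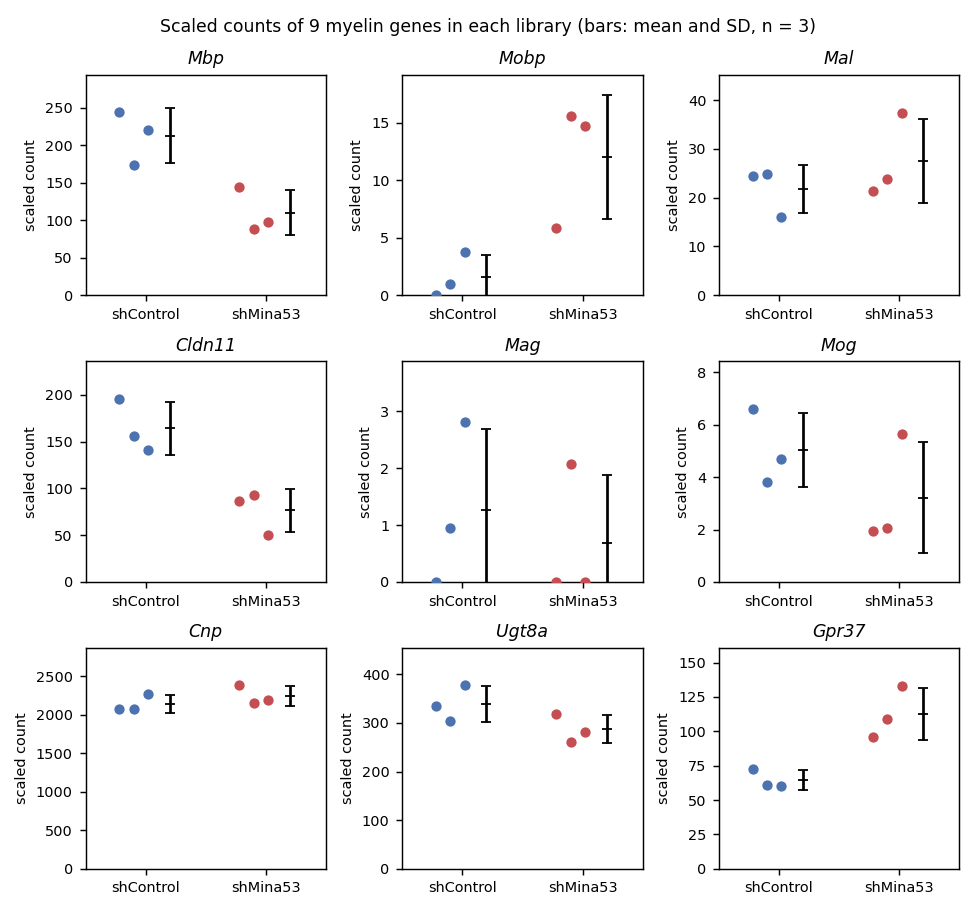
Scaled counts of the 9 genes, 1 panel each with its own linear axis from 0, with a point per library (blue shControl, red shMina53) and the mean and SD of 3 libraries in black; bars that would pass below 0 end at the axis. Mbp and Cldn11 lie lower and Gpr37 and Mobp higher in all shMina53 libraries, and the other 5 genes overlap between groups.

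The remaining genes overlapped between the groups. Cnp had 2080, 2070.3 and 2267 scaled counts in the shControl libraries and 2385, 2146 and 2186 in those of shMina53, and its log2 fold change of 0.07 had a 95% interval of -0.15 to 0.29 (limma adjusted p = 0.758). That interval was the narrowest of the 8 tested genes. Cnp (chromosome 11, 100574904 to 100591729, plus strand) shares 154 exon bases with Dnajc7 on the other strand, which had a mean of 1980 scaled counts, and the use of strand in counting is not given in the sources used here. Ugt8a had 335, 304 and 378 scaled counts in the shControl libraries and 319, 262 and 281 in those of shMina53. Its libraries were on average lower in shMina53 but overlapped (log2 fold change -0.24, 95% interval -0.53 to 0.06; limma adjusted p = 0.324). Mal, whose proteolipid sits in the lipid rafts of myelin and of epithelial cells, had 24.5, 24.8 and 16.0 scaled counts against 21.3, 23.9 and 37.3 (0.31, 95% interval -0.40 to 1.02; limma adjusted p = 0.630). Only shMina53 3 was above every shControl library for Mal.

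Mog and Mag, the genes of the outermost and the innermost faces of the sheath, were at the edge of detection. For Mog 7, 4 and 5 reads were counted with the control hairpin and 2, 2 and 5 with the knockdown, a ratio of 0.619 (95% exact counting interval 0.241 to 1.49), and Mog was not called (limma adjusted p = 0.584). Mag had 0, 1 and 3 reads against 0, 2 and 0, a ratio of 0.550 (0.0498 to 3.84), and its mean was under the minimum for the test. These intervals hold counting error only and not the spread between libraries. A difference within them was not detectable at this depth, and one beyond them might not have been either.

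**Figure D3:**
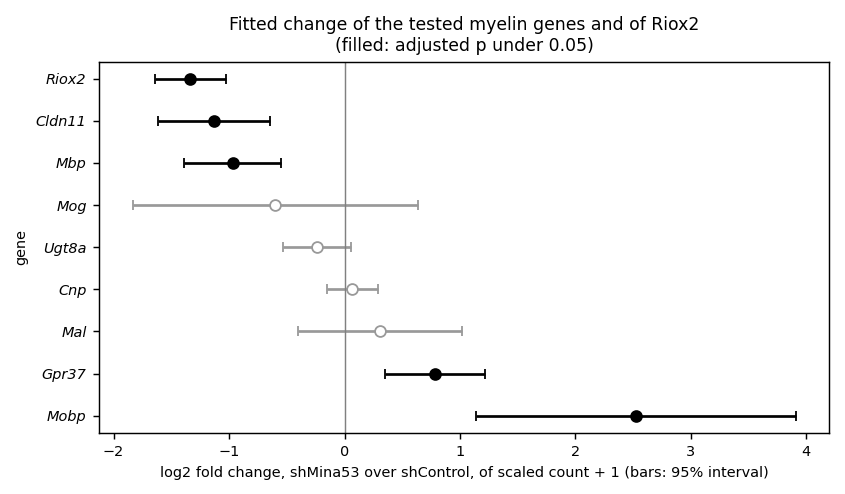
Log2 fold change of scaled count plus 1, shMina53 over shControl, with its 95% limma interval for the 8 tested genes and Riox2; filled symbols passed the adjusted threshold. Cldn11 (-1.13) and Mbp (-0.97) lie left of 0, Gpr37 (0.79) and Mobp (2.52) right of it, and the intervals of the other 4 genes cross 0.

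Summed over the 9 genes, the scaled counts were 2960, 2796 and 3093 in the shControl libraries and 3059, 2742 and 2805 in those of shMina53, with overlap between the groups. Cnp made up most of that sum. Without Cnp the sums were 879.7, 725 and 827 against 674, 596 and 619, a sum that holds Mbp and Cldn11, which were called lower above. edgeR on the recovered reads called Mbp (adjusted p = 0.0148), Cldn11 (0.0127) and Gpr37 (0.0239) in the same directions, and Mobp was below its filter on low counts. In edgeR 6.48% of genes tested were called lower and 5.46% higher. With plain limma (no trend, not robust) none of the 4 genes was called (adjusted p = 0.124 to 0.163), and 32 genes were called in all. At an unadjusted p under 0.05 plain limma had 2 of the 8 genes lower and 2 higher. The authors' deposited table gives p-values of 4.4e-05 for Mbp, 2.4e-05 for Cldn11, 0.00196 for Gpr37, 0.00512 for Mobp, 0.151 for Ugt8a, 0.472 for Mal, 0.535 for Mog, 0.547 for Cnp and 0.721 for Mag. These are not adjusted and match DESeq2 on the recovered reads, so they are not a separate test from it.

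**Figure D4:**
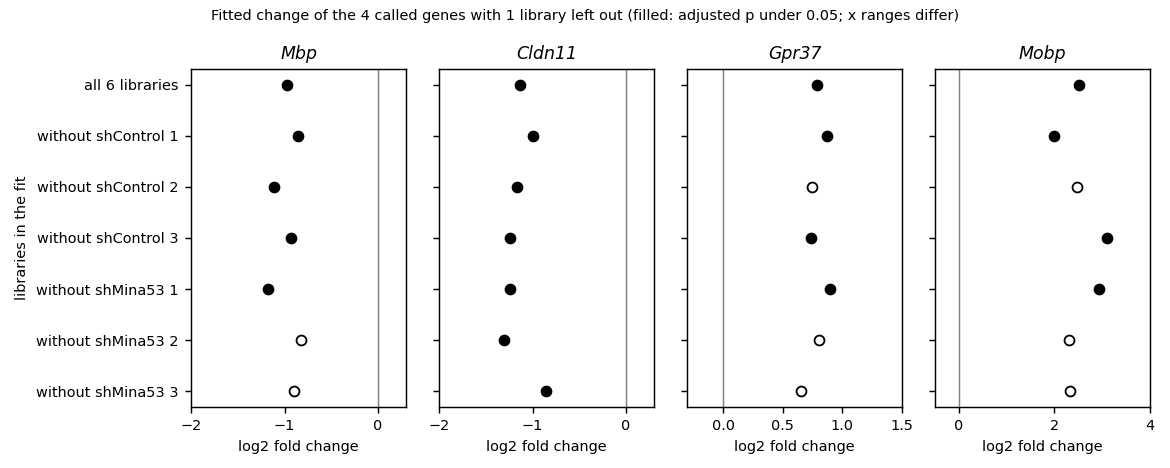
Log2 fold change of Mbp, Cldn11, Gpr37 and Mobp in the fit of all 6 libraries and in 6 fits that each left out 1 library; filled symbols had a limma adjusted p under 0.05. Directions are the same in all fits, Cldn11 is filled throughout, and the other 3 genes lose their call without shMina53 2 or shMina53 3.

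Sequence upstream of the start is shown for 4 genes, since Cldn11 fell, Mobp rose, Cnp was not called and Mag was near 0. Mbp was left out of this search, so its upstream sequence was not examined. Windows of 300 bases (250 before and 50 after the RefSeq start, GRCm38.p6) were taken for the other 8 of the 9 genes. They were searched on both strands for the core of SOX sites (ACAAAG), for the letters CTGGCAC and CTGGTAC of the MYRF motif and for the E-box CAGCTG. Each line gives bases 250 to 51 before the start, 5′ to 3′ on the gene's strand, with matches in capitals.
Mobp (chr9:120149492-120149691, plus strand): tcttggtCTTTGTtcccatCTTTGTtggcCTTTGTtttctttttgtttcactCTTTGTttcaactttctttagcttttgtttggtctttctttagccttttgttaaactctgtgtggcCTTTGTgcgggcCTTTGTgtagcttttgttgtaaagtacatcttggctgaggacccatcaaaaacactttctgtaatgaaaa
Cnp (chr11:100574689-100574888, plus strand): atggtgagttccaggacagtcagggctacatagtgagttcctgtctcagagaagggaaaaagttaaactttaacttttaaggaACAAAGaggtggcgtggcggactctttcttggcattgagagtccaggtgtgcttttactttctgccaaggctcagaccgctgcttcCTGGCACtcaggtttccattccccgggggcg
Mag (chr7:30914914-30915113, minus strand): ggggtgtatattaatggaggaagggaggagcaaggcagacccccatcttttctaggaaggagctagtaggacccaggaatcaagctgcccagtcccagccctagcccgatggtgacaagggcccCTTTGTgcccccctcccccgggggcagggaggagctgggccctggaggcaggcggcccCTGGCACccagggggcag
Cldn11 (chr3:31149670-31149869, plus strand): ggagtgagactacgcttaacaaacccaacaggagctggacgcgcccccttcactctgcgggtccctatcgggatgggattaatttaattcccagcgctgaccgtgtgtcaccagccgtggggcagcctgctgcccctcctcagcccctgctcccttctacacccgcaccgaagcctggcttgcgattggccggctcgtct
The SOX core was found in 3 of the 8 genes (Mobp, Cnp and Mag) and in 18.7% of all 32851 windows. Mobp held 6 matches, all as CTTTGT in a stretch rich in T, Cnp held 1, and Mag held 1 site, which lies in 2 overlapping windows. MYRF letters were found in 3 of the 8 genes (Cnp, Mag and Mog) and in 7.10% of all windows, and the E-box in 0 of the 8 and in 16.3%. The gene counts take a match in any window of a gene, whereas the percentages are over single windows. No match of one motif overlapped a match of another in these genes. Mag has 3 RefSeq starts, and its line is that of a window with matches. Matching letters are a description and not a bound site, and the windows of Cldn11, Gpr37, Mal and Ugt8a held none of these letters.

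Genes of the same lineage from 7 lists were called in both directions as well. The counts of each list are to be read beside the shares of all genes tested, 4.47% called lower and 3.79% higher. Sox10, the factor that drives myelin genes, fell from 507 ± 10.5 to 219 ± 11.4 scaled counts, with 506, 498 and 519 in the shControl libraries and 228, 207 and 224 in those of shMina53 (log2 fold change -1.21; limma adjusted p = 7.5e-05). Myrf, which acts with SOX10 late in differentiation, had 191 ± 38.1 and 157 ± 29.1 and was not called (-0.28, 95% interval -0.67 to 0.11; limma adjusted p = 0.398). Among 18 transcription factors Sox10, Nkx2-2 and Myt1 were lower and 0 higher, with 15 not called and a median of -0.07. By edgeR, by DESeq2 and with any 1 library left out, 0 factors were called higher as well, and at an unadjusted p under 0.05 limma had 1 factor higher and edgeR 1. Nkx2-2 (-0.53; limma adjusted p = 0.0198) and Myt1 (-0.46; 0.0481) lost their calls without shControl 2, shMina53 2 or shMina53 3, and Myt1 also without shControl 1 or shMina53 1. Olig1, at 31403 ± 2995 and 34472 ± 2639 scaled counts the highest of the factors, was not called.

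Other myelin protein genes were mostly not called. Of 25 listed, 22 were found and tested, of which Tspan2 and Tppp were lower, Gpm6b was higher and 19 were not called, with a median of -0.10. The 1 call higher among 22 is near the share of all genes tested, 3.79%. Tspan2, a tetraspanin of the sheath, went down, from 129 ± 7.48 scaled counts to 58.6 ± 7.09 (log2 fold change -1.13; limma adjusted p = 0.00234), and it was called in all 6 fits that left out 1 library. Tppp, a tubulin-binding protein of oligodendrocytes (-0.68), was called in 1 of those 6 fits, that without shControl 3. Gpm6b, a membrane glycoprotein gene that many neural cells use, rose from 24782 ± 905 to 34190 ± 3451 (0.46; limma adjusted p = 0.0152) and was not called when shControl 2, shMina53 2 or shMina53 3 was left out.

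Among 15 enzymes of myelin lipids 1 was called lower, 1 higher and 13 not called, with a median of 0.01. In a list of this size 1 call in a direction is near the shares of all genes tested, 4.47% lower and 3.79% higher. Fa2h, which adds the hydroxyl group to the fatty acids of galactolipids, fell from 114, 81.0 and 114 scaled counts in the shControl libraries to 44.5, 28.02 and 36.1 in those of shMina53 (log2 fold change -1.49; limma adjusted p = 0.00171). Aspa, which frees acetate from N-acetylaspartate in oligodendrocytes, rose from 55.6, 56.2 and 57.3 to 123, 103 and 107 (0.96; limma adjusted p = 0.00703). Both were called in all 6 fits that left out 1 library. Gal3st1, which sulfates the lipid that Ugt8a makes, had 111 ± 21.5 and 69.6 ± 23.2 and was not called (-0.71; limma adjusted p = 0.0875). Degs1, a desaturase of ceramide synthesis and the most abundant of the enzymes, was not called (0.01; limma adjusted p = 0.968).

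Of the 7 lists that of precursor genes had the highest share called. The 10 precursor genes held 5 calls lower, 2 higher, 3 not called and a median of -0.44, and 3 to 8 were called lower and 0 to 2 higher when 1 library was left out. Neu4, a sialidase gene (134 ± 11.3 to 42.2 ± 18.7 scaled counts), C1ql1, of a secreted C1q-like protein (270 ± 22.6 to 138 ± 10.7), and Pdgfra, the receptor gene of precursors (774 ± 68.3 to 447 ± 28.3), fell, with limma adjusted p of 0.000795, 0.00113 and 0.000838. Lhfpl3 (-0.49) and Cacng4 (-0.39) were the other genes called lower, and Ptprz1 (0.52) and Sema5a (0.76) were called higher. Lhfpl3 lost its call without shMina53 1 or shMina53 2, Sema5a without shMina53 3, and Cacng4 and Ptprz1 without shControl 2, shMina53 2 or shMina53 3. Of 10 genes of newly formed oligodendrocytes, Bcas1 was called lower (1196 ± 161 to 725 ± 171; limma adjusted p = 0.00742) and Kif19a higher (0.75; 0.0377), with 8 not called and a median of -0.15. Bcas1 lost its call without shMina53 2 or shMina53 3, and Kif19a without shControl 1 or any 1 shMina53 library. Fyn, a kinase gene and the most abundant of that list, was not called (-0.19).

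The 13 tested negative regulators of oligodendrocyte differentiation split into 3 lower, 3 higher and 7 not called, with a median of 0.07. The most abundant of them, Notch1, had 2968 ± 1079 and 3948 ± 179 scaled counts and was not called. Gpr17, a receptor gene that falls as oligodendrocytes mature (-1.06), and the Notch effectors Hes1 (-0.59) and Hes5 (-0.88) were lower. Daam2, of Wnt signalling (0.71), Tmem98, which binds the MYRF protein (0.62), and Id4, an inhibitor of basic helix-loop-helix factors (0.53), were higher, where Gpr37 was higher too. Gpr17, Hes5 and Daam2 were called in all 6 fits that left out 1 library. Hes1 lost its call without shControl 2 or shMina53 3, Tmem98 without shMina53 3, and Id4 without shControl 2 or any of the shMina53 libraries. Lims2, on the opposite strand to Gpr17, overlaps 188 of its exon bases, with means of 252 and 2332 scaled counts for the 2 genes. Of 10 tested relatives of the proteolipid, claudin and receptor genes 1 was called, the tight junction scaffold gene Tjp1, which was higher (0.48; limma adjusted p = 0.0317), a call that needed shControl 2 and each shMina53 library. The claudin genes Cldn10 and Cldn12 were not called (0.37 and 0.17).

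**Figure D5:**
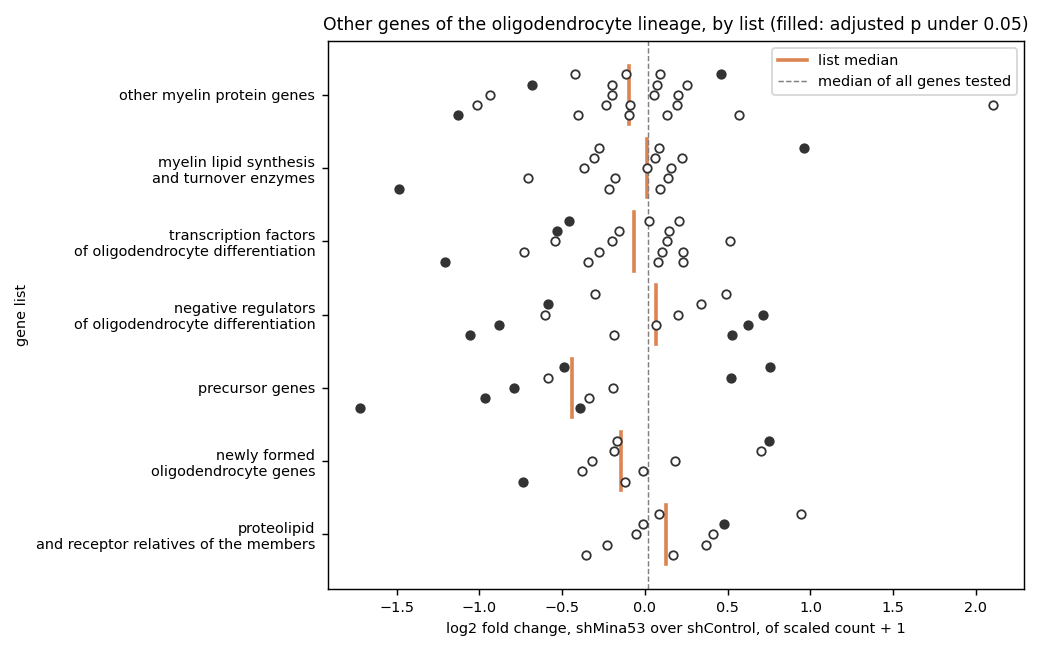
Log2 fold change of scaled count plus 1, shMina53 over shControl, of each tested gene in 7 lists of the oligodendrocyte lineage, 1 symbol per gene, filled where the limma adjusted p was under 0.05; orange bars are list medians and the dashed line is the median of all genes tested. Called genes lie on both sides of 0 in 5 of the lists, and the precursor list has the lowest median, -0.44.

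Of the 4 called genes Mbp had the highest mean, and its profile over the 6 libraries was compared with 12052 genes of at least 50 scaled counts by the root mean square difference of log2 values centred on each gene's mean. Slc1a1, a glutamate transporter gene, was closest (0.103), with 596, 508 and 548 scaled counts in the shControl libraries and 349, 241 and 268 in those of shMina53. Mfng, a Notch glycosyltransferase gene (0.128), Dll3, a Notch ligand gene (0.130), Bcas1 (0.140) and the semaphorin gene Sema7a (0.155) followed. Each of the 5 was lower in shMina53 by limma, with log2 fold changes of -0.74 to -1.06. Their direction follows from the comparison, since the profile of Mbp holds its difference between the groups. Mobp, Mal, Mog and Mag were under the minimum of 50 and were not compared. Cldn11, Cnp, Ugt8a and Gpr37 were compared and were not among the 5. Genes that did not fall, such as Cnp and Gpr37, could not come close by this measure.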

How the data were processed

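RNA sequencing of 6 libraries was analysed, 3 shControl and 3 shMina53. The authors deposited 1 table with a signal per gene and library, a mean signal per group and a p-value whose test is not named. Each deposited signal value equals reads over a constant of its library: 100% of the values were whole multiples of 1 step at a tolerance of 0.01 reads, which gave the recovered reads. The deposited p-values match the unadjusted p of DESeq2 on these reads, with a median absolute difference of log10 p of 1.13e-06. Per the submitters' processing notes, the build was mm10 and the tools were DESeq2, edgeR, StringTie 1.3.4d, HISAT2 2.0.4, UMI-tools and CASAVA, with no roles given. Use of molecular identifiers and of strand in counting is not given in the sources used here.

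limma-trend (limma 3.58.1, R 4.3.3; trend and robust, no covariates) was fitted to log2(scaled count + 1) of the 21500 genes whose mean reached 1. edgeR 4.0.16 and DESeq2 1.42.0 were run on the recovered reads, and the fits were tested on simulated data. Counting intervals are exact, conditional on the sum of both groups' reads. Fold changes understate the change of low genes. Lengths and positions are from GENCODE M21 on mm10, in which 25973 of the table's IDs were found. The genes and lists were chosen with earlier results of these data known. The rule for named genes took Riox2, the 9 genes, up to 4 called genes and the most abundant gene of each list, and the 5 profiles closest to Mbp; the remaining called genes and Myrf, Gpr37l1, Opalin, Ermn, Nes, Kdr, Gal3st1, Enpp6, Cldn10 and Cldn12 were named after their values were seen. Gjb1, Sept4, Sept8 and 8 listed markers were not analysed here.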

Additional observations from a re-analysis of the deposited data

How the results depend on the processing

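Directions of the 8 tested genes and of Riox2 were the same in every alternative that gave a value. All genes called numbered 1776, and 497 (without shMina53 3) to 2794 (without shControl 1) when 1 library was left out, 32 with limma without trend and robust, 1178 with the replicate block and 999 with edgeR and the block. The 2 calls lower were 1 to 2, and the 2 calls higher 0 to 2, when 1 library was left out. limma without trend and robust called 0 lower and 0 higher. Calls higher were 1 with edgeR, 1 with DESeq2 and 1 with a minimum mean of 10, since these did not test Mobp or gave it no adjusted p. With limma's replicate block, calls higher were 1, because Gpr37 missed the threshold (adjusted p = 0.0587), and with edgeR's replicate block 0 (Gpr37 adjusted p = 0.0601). Calls lower did not change with the block. The replicate numbers were not treated as pairing the samples: correlations of deviations from the group means between libraries of the same number were -0.145, 0.107 and 0.0198 over 12053 genes, and not every library correlated best with its own number. Of the 101 genes in the lists 24 were called, 11 to 30 when 1 library was left out and 1 with limma without trend and robust. With the longest transcript as the length, 5 of the 9 genes kept their place in the order of levels in shMina53. The log2 ratio of the sums over the 9 genes was -0.04, and 0.0101 with upper quartile scaling. Depth limits what can be said of Mobp, Mog and Mag, which had at most 15 reads in any library.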

Other observations

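The libraries numbered 2 were low in both groups for a small set of genes, a pattern noticed after the values were seen. Enpp6, a phosphodiesterase gene of newly formed oligodendrocytes, had 179, 60.1 and 105 scaled counts in the shControl libraries, in replicate order, and 151, 44.6 and 75.7 in those of shMina53. Mbp, Fa2h, Enpp6 and Bcas1 were each under 0.8 times the mean of replicates 1 and 3 in both groups. Of the 114 listed genes with a mean of at least 50 scaled counts, 10 were under that ratio in shControl and 9 in shMina53. The labels do not say that a number stands for a shared culture or day, and this was not tested.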
